A study of Mus musculus with 3 samples.

Results

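The genes described here are 8 genes of inflammatory and programmed cell death, chosen by symbol from the 32285 genes counted in the series: Casp1, Casp4, Gsdmd, Casp8, Ripk1, Zbp1, Ripk3 and Mlkl. They were followed in mouse colon organoids, which are epithelial cultures grown from colonic crypts of wild-type mice and kept in full medium. The sc-RNAseq data comprised 3 libraries, 1 untreated, 1 exposed to IFN-γ for 24 h and 1 exposed for 48 h. Organoids were dissociated and dead cells were removed by FACS with the dye DAPI before capture. Counts are unique molecular identifiers (UMIs), each of which stands for 1 captured transcript molecule, and levels are UMIs scaled to a library total of 1000000 (CPM).

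Caspases are proteases that cut other proteins after aspartate. In pyroptosis, caspase-1, activated by inflammasomes, and caspase-11, the product of mouse Casp4 and a sensor of bacterial lipopolysaccharide, cut gasdermin D (Gsdmd), whose released end forms pores in the plasma membrane. In necroptosis, the kinase RIPK3 is engaged through RIPK1 or through ZBP1, a sensor of Z-form nucleic acid, and phosphorylates MLKL, which ruptures the membrane, while caspase-8 starts apoptosis downstream of death receptors and restrains necroptosis. The intestinal epithelium is a tissue in which this restraint is known to matter, and IFN-γ is a cytokine that induces many genes in epithelial cells.

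Short coding stretches with a functional site are shown for each of the 8 genes except Mlkl. ZBP1, RIPK1 and RIPK3 bind one another through the RHIM, a short interaction motif, and the coding bases around its core are shown with the core in capitals because they are the feature that the 3 necroptosis partners share. The sequences come from GENCODE vM21 transcripts on mm10 and run 5′ to 3′ on the coding strand.
Zbp1, first RHIM, codons 192 to 195: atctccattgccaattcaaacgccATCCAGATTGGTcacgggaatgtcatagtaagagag
Zbp1, second RHIM, codons 248 to 251: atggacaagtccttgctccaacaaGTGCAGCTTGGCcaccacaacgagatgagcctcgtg
Ripk1, codons 528 to 531: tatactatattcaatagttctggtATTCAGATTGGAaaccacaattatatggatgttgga
Ripk3, codons 448 to 451: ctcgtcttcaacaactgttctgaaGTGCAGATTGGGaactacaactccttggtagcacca

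For the proteases, the capitals mark the active-site motif that holds the catalytic cysteine, and for Gsdmd they mark the 4 codons that end at the caspase cut site.
Casp1, codons 282 to 286: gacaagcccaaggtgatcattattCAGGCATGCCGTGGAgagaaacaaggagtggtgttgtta
Casp4, codons 252 to 256: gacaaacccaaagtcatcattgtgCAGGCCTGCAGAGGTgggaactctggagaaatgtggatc
Casp8, codons 380 to 384: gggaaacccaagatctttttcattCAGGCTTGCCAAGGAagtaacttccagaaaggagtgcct
Gsdmd, codons 273 to 276: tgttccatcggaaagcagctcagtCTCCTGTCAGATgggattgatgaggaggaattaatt
Among 21562 coding genes, the pattern of the RHIM core occurred in 2.24%, that of the active site in 0.0974% and that of the cut site in 1.95%, so only the active-site pattern was rare by itself. Casp1 (chr9:5298517-5307265, plus strand) and Casp4 (chr9:5308828-5336783, plus strand) are neighbours on mm10, and Casp12 (chr9:5345430-5373032, plus strand) follows them. Zbp1 lies on the minus strand at chr2:173206612-173218923, Ripk3 on the minus strand at chr14:55784995-55788865 and Mlkl on the minus strand at chr8:111311797-111338177. Casp8 (chr1:58795374-58847503), Ripk1 (chr13:34002363-34037147) and Gsdmd (chr15:75862327-75867408) lie on the plus strand. Of the 8 genes, Ripk1 overlapped another counted gene, Serpinb6a on the opposite strand.

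A cell entered the sums if it had 5000 UMIs or more, 400 genes or more and a mitochondrial share of 15% or less. This held for 1058 cells of the untreated library, 917 of the 24 h library and 2934 of the 48 h library. Their summed UMIs ranged from 47243500 to 71077817, but the median per cell was 33550, 68784 and 10772, so that cells at 48 h were the shallowest. Each pair of libraries shared between 1 and 4 barcodes among the kept cells. All 7 epithelial markers were detected, with a summed level of 5518 to 8217 CPM, against 3.11 to 4.38 CPM for 11 immune markers, among which Ptprc was at 0 in every library. The 8 stromal and endothelial markers summed to 3.35, 11.8 and 18.8 CPM, mostly Acta2 after treatment, and Col1a1 and Col3a1 were at 0. IFN-γ response genes followed the labels: Irf1 was at 23.5, 331 and 310 CPM in the untreated, 24 h and 48 h libraries. Because each condition is 1 library, no test across samples was possible. Intervals in parentheses are exact, at 95%, and describe counting error alone, and both times share the same untreated control.

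All 8 genes had a higher level at both times of IFN-γ than in the untreated library. Zbp1 and Mlkl were the 2 of 8 genes at least 2-fold higher, at 24 h and at 48 h, and 0 of 8 were at least 2-fold lower. Among the 16027 genes with at least 20 UMIs at 24 h and untreated together, 3.21% were at least 2-fold higher and 23.6% at least 2-fold lower. Among 15990 genes at 48 h these shares were 4.73% and 14.7%. The median log2 ratio of the 8 genes was 0.66 at 24 h and 0.65 at 48 h, beside medians of -0.42 and -0.17 over all genes tested, where 25.6% and 37.4% of genes were higher. TMM factors in place of total UMIs shifted all ratios upward on the log2 scale, by 0.45 for the 24 h and 0.19 for the 48 h comparison. It left all 8 genes higher at both times but put 5 of 8 past 2-fold at 24 h, and it changed the genes past 2-fold among all genes from 514 higher and 3776 lower to 1070 and 2339 at 24 h, and from 757 and 2348 to 966 and 1864 at 48 h.

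**Figure D1:**
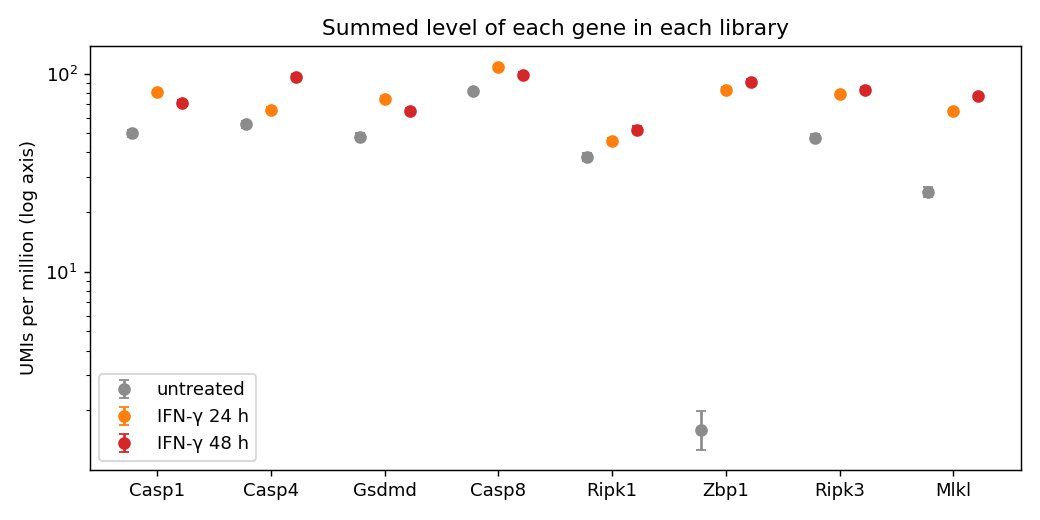
CPM (log axis) of each gene in the untreated, 24 h and 48 h libraries; points are single libraries and bars exact 95% Poisson intervals. Zbp1 stands at 1.59 CPM untreated and at 83.0 and 91.1 CPM with IFN-γ, while no other gene is more than 3.04-fold higher.

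Zbp1, the nucleic acid sensor, was the gene with the largest ratio. Untreated cells held 79 UMIs of it, those at 24 h 5902 and those at 48 h 4305, or 1.59, 83.0 and 91.1 CPM. The log2 ratio was 5.71 (5.39 to 6.05) at 24 h and 5.84 (5.52 to 6.18) at 48 h, a 52.3-fold and a 57.4-fold higher level. The intervals of the treated libraries lay far above that of the untreated one, and Zbp1 was nearly undetected without IFN-γ. The 79 untreated UMIs came from 46 of 1058 cells, of which 31 held a single UMI and 1 held 8. In those 46 cells Irf1 was at 23.6 CPM and Mlkl at 22.7 CPM, against 23.4 and 25.4 CPM in the other 1012 cells. Their median depth was larger, at 55037 against 31771.5 UMIs.

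Ripk3, the kinase that ZBP1 and RIPK1 engage, was at 47.4, 78.5 and 82.5 CPM in the untreated, 24 h and 48 h libraries. Its log2 ratio was 0.73 (0.66 to 0.80) at 24 h and 0.80 (0.73 to 0.88) at 48 h. Mlkl, the executioner of necroptosis, was at 25.2, 64.5 and 76.7 CPM, with log2 ratios of 1.35 (1.26 to 1.45) and 1.60 (1.51 to 1.70). Both treated libraries lay above the untreated library for each gene, and Mlkl had the larger ratio of the pair. Ripk1, the kinase and scaffold below TNF receptors, was at 38.0, 45.5 and 52.2 CPM, with log2 ratios of 0.26 (0.18 to 0.34) and 0.46 (0.37 to 0.54).

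Casp8, the apoptotic caspase that restrains necroptosis, was at 81.4, 108 and 98.8 CPM, with log2 ratios of 0.40 (0.35 to 0.46) at 24 h and 0.28 (0.22 to 0.34) at 48 h. Since the ratio of 2 genes within a library does not depend on its scaling, the necroptosis genes were also counted per Casp8 UMI. Per Casp8 UMI there were 0.310 Mlkl UMIs without IFN-γ, and 0.599 and 0.776 after 24 h and 48 h of it. For Ripk3 the same ratio was 0.582, 0.729 and 0.835, and for Zbp1 it was 0.0195, 0.771 and 0.922. The 3 genes therefore took a larger share relative to Casp8 in both treated libraries, with intervals that did not overlap the untreated one. Cflar, which encodes the caspase-8 regulator cFLIP, moved differently, at 0.365, 0.249 and 0.396 UMIs per Casp8 UMI.

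Among the pyroptosis genes, Casp1 was at 49.9, 80.4 and 70.7 CPM, with log2 ratios of 0.69 (0.62 to 0.76) at 24 h and 0.50 (0.43 to 0.58) at 48 h. Gsdmd, its substrate, was at 47.9, 74.6 and 64.5 CPM, with log2 ratios of 0.64 (0.57 to 0.71) and 0.43 (0.35 to 0.51). These genes stayed close to a fixed proportion, with 0.961, 0.927 and 0.912 Gsdmd UMIs per Casp1 UMI. Casp4 had another time course, at 55.4, 65.6 and 96.6 CPM, and its log2 ratio was 0.24 (0.18 to 0.31) at 24 h and 0.80 (0.73 to 0.87) at 48 h. There were 1.11, 0.815 and 1.37 Casp4 UMIs per Casp1 UMI, lowest at 24 h and highest at 48 h.

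Between 24 h and 48 h, 0 of 8 genes were at least 2-fold apart, beside 9.52% of 15450 genes at least 2-fold higher and 1.68% at least 2-fold lower at 48 h. With TMM factors the genes past 2-fold changed from 1471 higher and 260 lower to 713 and 505. The median log2 ratio of the 8 genes was 0.10, against 0.25 over all genes, and it became -0.16 with TMM factors, which lower every ratio of this comparison by 0.26. Casp4 was higher at 48 h under either scaling, with log2 ratios of 0.56 by total UMIs and 0.30 with TMM factors. Casp1, Gsdmd and Casp8 were lower under either, at -0.19, -0.21 and -0.12 by total UMIs. Ripk1, Zbp1, Ripk3 and Mlkl were higher by total UMIs, at 0.20, 0.13, 0.07 and 0.25, but all 4 turned negative with TMM factors.

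The levels were then split by cell cluster. Integrated clustering without the 8 genes gave 9 clusters, of which 6 held at least 30 cells in every library. By markers, cluster 1 was proliferating-like (Ube2c, Nusap1, Plk1), cluster 4 goblet-like (Spink4, Muc2, Tff3) and cluster 5 colonocyte-like (Krt20, Slc26a3, Car1). Over whole libraries the 9 colonocyte markers summed to 1636, 168 and 137 CPM and the 9 goblet markers to 2997, 999 and 696 CPM in the untreated, 24 h and 48 h libraries. The largest colonocyte marker untreated was Car1, at 986, 100 and 56.5 CPM. Krt20 alone among the colonocyte markers was not lower, at 21.6, 27.6 and 26.1 CPM. The part of these marker changes in the members' levels by cluster was not tested. Clusters 0, 2 and 3 stayed unnamed and were led by Lrrc4 and Angpt2, by Hist1h1a and Mcm4, and by Stox2, Edn1 and Msln. Of the 8 stem markers, 7 were raised in cluster 0, Lgr5 and Axin2 among them, but none was among its leading genes. Cluster 0 was shallow and rich in mitochondrial UMIs, with a median of 15311 UMIs and 10.4% untreated, and it held 31.7%, 19.6% and 46.2% of the cells of the untreated, 24 h and 48 h libraries. Of the 48 pairs of gene and cluster, 46 had a higher level at 24 h than untreated and 47 at 48 h. The exceptions were Casp4 in cluster 0 and Ripk1 in cluster 5 at 24 h and Casp8 in cluster 0 at 48 h, and each of their intervals included 0. The pairs share the same 3 libraries and are not independent. Over whole libraries 25.6% of all genes were higher at 24 h and 37.4% at 48 h, and their share by cluster was not taken.

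Mlkl was higher in all 6 clusters, by log2 ratios of 1.17 to 1.69 at 24 h and 1.28 to 2.10 at 48 h. Zbp1 was higher in all 6 as well, and its treated level ran from 43.1 CPM in cluster 0 to 136 CPM in colonocyte-like cluster 5 at 24 h, and from 59.2 to 178 CPM at 48 h. The order of the clusters was the same at both times for Zbp1, although clusters 5 and 3 at 24 h, at 136 and 133 CPM, did not differ beyond their intervals. Clusters 1 and 2 also overlapped at both times, and clusters 4 and 1 at 48 h. Untreated Zbp1 was at 6.86 CPM in goblet-like cluster 4 and 2.71 CPM in cluster 5, and at or below 0.5 CPM in the other 4 clusters. The enteroendocrine-like cluster, with only 30, 12 and 18 cells, had the highest Zbp1 level of clusters 0 to 7, at 447 CPM at 24 h and 391 CPM at 48 h, and 0 UMIs untreated.

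Ripk3 differed among clusters before treatment, at 31.7 CPM in cluster 4 and 30.6 CPM in cluster 5 against 43.1 to 58.3 CPM in the others. Its log2 ratio at 24 h was 1.11 and 1.67 in those clusters and 0.39 to 0.54 in the other 4. The levels spanned 62.5 to 97.4 CPM at 24 h and 76.1 to 92.5 CPM at 48 h. Casp1 was highest of the 6 clusters in cluster 5 in every library, at 101, 109 and 134 CPM, and lowest in cluster 0, at 29.6, 67.2 and 60.4 CPM. In both treated libraries the interval of cluster 0 overlapped those of clusters 1, 2 and 3, and at 48 h also that of cluster 4. The log2 ratio of Casp1 at 24 h was 0.12 (-0.03 to 0.26) in cluster 5 and 1.19 (0.91 to 1.47) in cluster 0. Among the same 6 clusters Casp4 was highest in cluster 0, at 114, 113 and 134 CPM. In cluster 0 its log2 ratio was -0.01 (-0.18 to 0.17) at 24 h and 0.24 (0.11 to 0.37) at 48 h, against 0.64 to 1.09 at 48 h in clusters 1 to 5. Gsdmd was highest of the 6 in cluster 3 in every library, at 65.0, 107 and 91.5 CPM. The interval of cluster 3 overlapped those of clusters 1 and 5 untreated and that of cluster 5 at 48 h. The small enteroendocrine-like cluster was higher still for Gsdmd at 24 h, at 165 CPM (125 to 213). Its Casp4 level at 48 h was 184 CPM (126 to 259), with an interval that overlapped that of cluster 0. Clusters differed in depth, and whether depth or free RNA sets part of these orders was not tested.

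**Figure D2:**
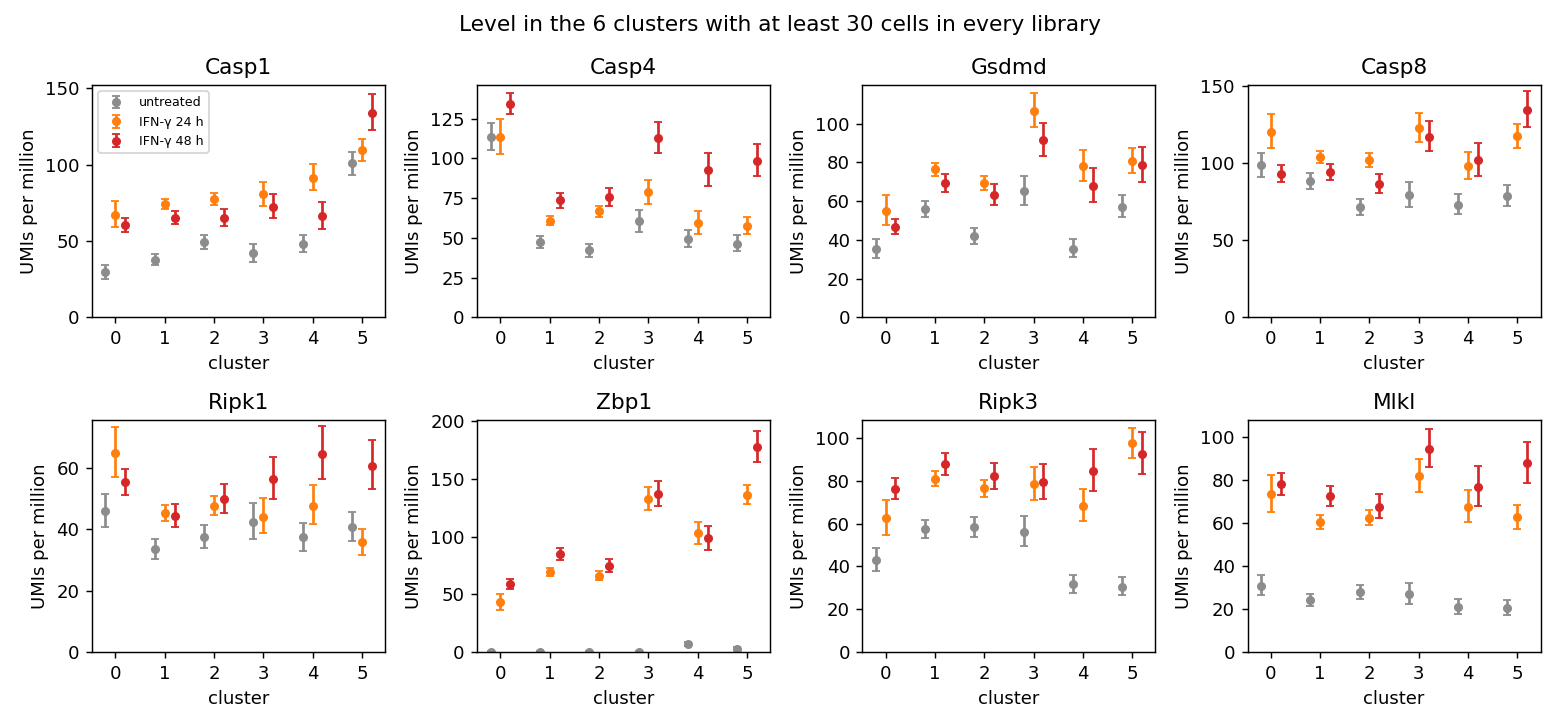
CPM of each gene in clusters 0 to 5, by library; bars are exact 95% Poisson intervals. Mlkl and Zbp1 lie above untreated in every cluster, whereas Casp4 in cluster 0 is at 114 untreated and 113 at 24 h.

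Zbp1, Ripk3 and Mlkl were next examined in the same cells, after each cell was thinned at random to 5000 UMIs to remove differences in depth. Zbp1 was found in 1.23%, 30.5% and 30.7% of cells of the untreated, 24 h and 48 h libraries, Ripk3 in 22.6%, 31.8% and 33.0% and Mlkl in 11.6%, 29.2% and 31.3%. All 3 together were found in 0 of 1058 untreated cells, for which the exact interval reaches 0.348%. They were found in 21 of 917 cells at 24 h, or 2.29% (1.42 to 3.48), and in 94 of 2934 cells at 48 h, or 3.20% (2.60 to 3.91). The product of the 3 single shares was 2.84% at 24 h and 3.17% at 48 h, within both intervals, so co-detection at this depth was near what independent detection would give. Unthinned, the shares were 2.55%, 69.7% and 30.2%, with products of 1.53%, 57.3% and 20.8%, and the cells with all 3 were deeper, with a median of 86861 UMIs at 24 h against 9085 in cells with none. Barcodes under 2000 UMIs, which hold mostly free RNA, carried Zbp1 at 1.07, 83.7 and 105 CPM, close to the level in kept cells, so a single UMI does not show that its cell expressed the gene.

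**Figure D3:**
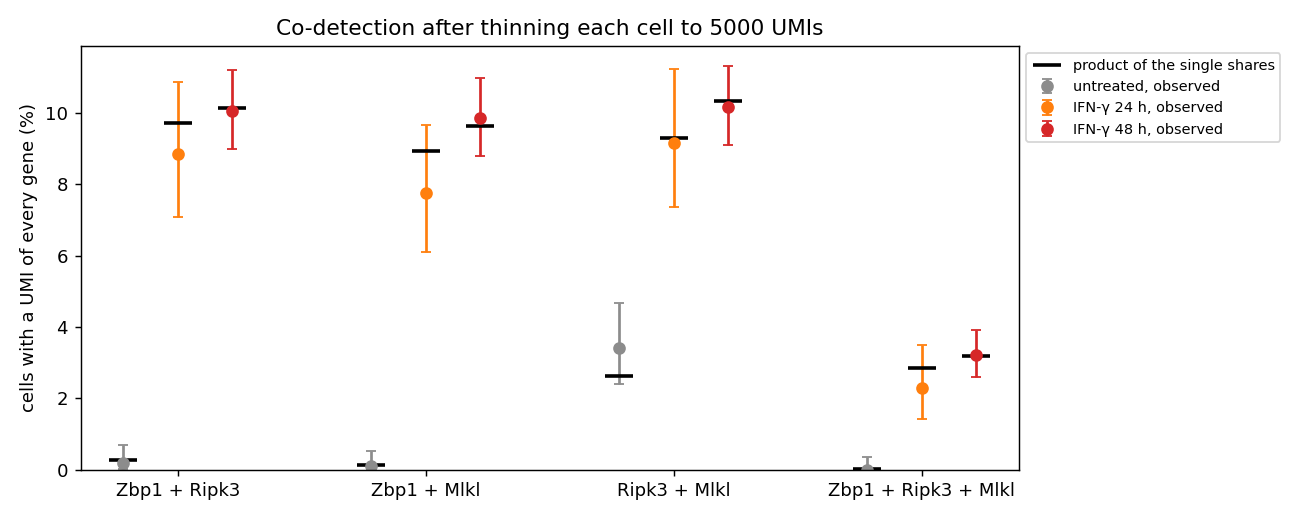
Percent of cells with a UMI of every gene named, after thinning to 5000 UMIs; points are observed shares with exact 95% binomial intervals and black bars the products of single shares. At both treated times all observed shares have intervals that include the product.

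Because dying cells can lose cytoplasmic RNA and retain mitochondrial RNA, each library was divided into tertiles, 3 equal groups of cells by mitochondrial share, and levels were scaled to non-mitochondrial UMIs. The upper tertiles were far shallower, with medians of 15326, 16657 and 7047 UMIs against 60726, 87008 and 23878 in the lower tertiles of the untreated, 24 h and 48 h libraries. They were also drawn from cluster 0 to 65.9%, 49.8% and 78.1%. Casp4 was higher in the upper tertile in every library, by log2 ratios of 1.41 (1.27 to 1.55), 0.70 (0.58 to 0.82) and 1.01 (0.91 to 1.12). When tertiles were taken within each depth quartile, these were 0.63, 0.38 and 0.63. Within single clusters, a split added after seeing the data, Casp4 was higher in the upper tertile in 17 of 18 splits of library and cluster, with intervals above 0 in 14. The exception was untreated cluster 5, at -0.52 (-0.96 to -0.08), and in cluster 0 the log2 ratio was 0.35, 0.11 and 0.22. Among the other members the splits with a higher level ranged from 1 for Gsdmd to 16 for Ripk1, with intervals above 0 in at most 3. Such counts were not taken over all genes, so how common the Casp4 pattern is was not tested. Gsdmd was lower in the upper tertile in every library, by log2 ratios of -0.42, -0.46 and -0.56, and -0.26, -0.33 and -0.32 within depth quartiles. Mlkl was modestly higher, at 0.36, 0.28 and 0.20, but within depth quartiles the untreated interval included 0. Ripk1 and Casp8 were higher as well, at 0.45 and 0.23 untreated and at 0.26 and 0.33 at 24 h. Within depth quartiles they were at 0.22 and 0.15 untreated and at 0.16 and 0.18 at 24 h, with intervals above 0. At 48 h Ripk1 was at 62.1 CPM in the upper and 49.4 CPM in the lower tertile, and Casp8 at 103 and 99.2 CPM.

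Over all kept cells, the summed level of Zbp1, Ripk3 and Mlkl differed in direction between times. At 24 h its interval included 0 once depth was evened, and most splits within clusters had intervals that included 0. Its log2 ratio of upper to lower tertile was 0.17 (0.10 to 0.24) at 24 h and -0.16 (-0.24 to -0.08) at 48 h, and within depth quartiles it was 0.03 (-0.02 to 0.09) and -0.08 (-0.14 to -0.01). Zbp1 alone was at 0.29 (0.18 to 0.39) at 24 h and -0.58 (-0.72 to -0.44) at 48 h, but at 0.01 and -0.18 within depth quartiles. With each cell thinned to 5000 UMIs, the 24 h values were 0.0014 (-0.21 to 0.21) for the sum and -0.32 (-0.69 to 0.04) for Zbp1. Within cluster 5 the sum was higher in the upper tertile at both times, at 0.58 (0.42 to 0.74) and 0.26 (0.07 to 0.45). In the same cluster untreated, the sum was lower, at -0.62 (-1.03 to -0.22). Within cluster 3 the sum was lower at both times, at -0.44 (-0.77 to -0.13) and -0.31 (-0.53 to -0.08). Of the 18 splits of library and cluster, the sum was higher in the upper tertile in 5. Intervals lay above 0 in 2 of the splits and below 0 in 3. The gate on DAPI and the limit of 15% had already removed cells, and the relation covers only what remained.

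**Figure D4:**
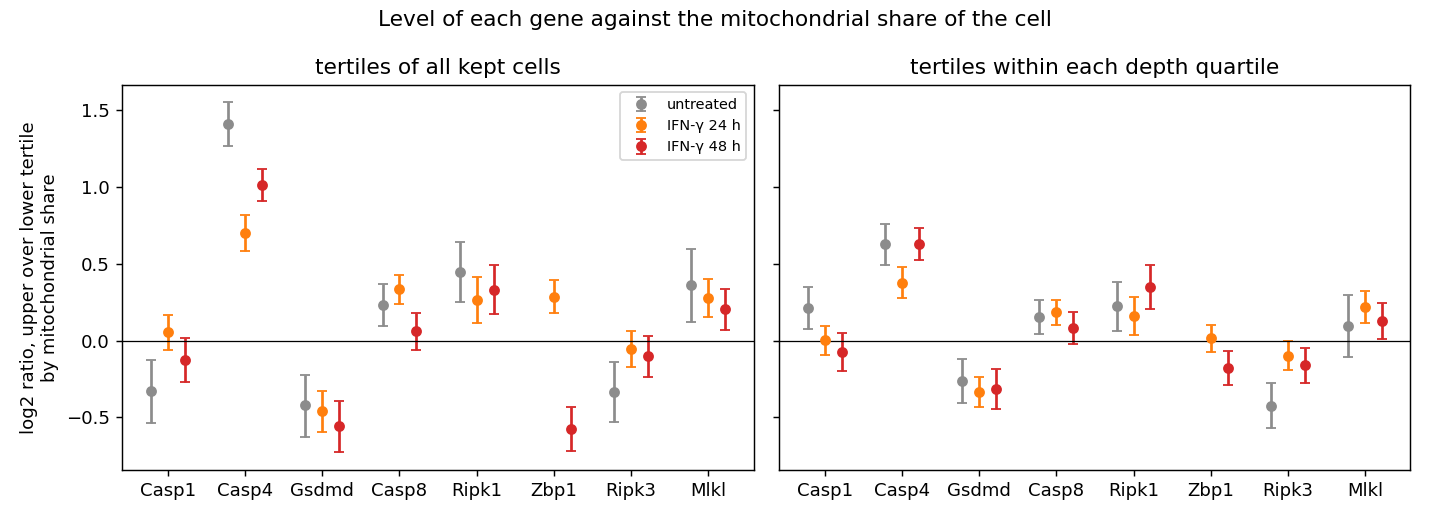
Log2 ratio of the level in the upper over the lower tertile of cells by mitochondrial share, for tertiles of all kept cells (left) and within depth quartiles (right); bars are exact 95% intervals, and untreated Zbp1 is left out for its few UMIs. Casp4 is above 0 and Gsdmd below 0 in every library in both panels.

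The other genes of these pathways were taken from 4 lists, and of each list the genes with the 3 highest and 2 lowest ratios at 24 h are named. Of 16 measured genes of pyroptosis, 6 were higher at 24 h and 7 at 48 h, with median log2 ratios of -0.97 and -0.48, below the medians of all genes. Over all genes tested, 25.6% and 37.4% were higher. At 24 h 1 of the 16 was at least 2-fold higher and 6 at least 2-fold lower, and at 48 h 2 and 5 were. The shares over all genes were 3.21% and 23.6% at 24 h, and 4.73% and 14.7% at 48 h. Casp12, the neighbour of Casp1 and Casp4, had 9, 486 and 537 UMIs, with log2 ratios of 5.24 (4.31 to 6.38) and 5.97 (5.04 to 7.11). Nlrp1b, an inflammasome sensor, had log2 ratios of 0.90 and 1.16, and Pycard, the inflammasome adaptor ASC, 0.81 and 0.65. Il18, a cytokine matured by caspase-1, was lower by log2 ratios of -4.62 (-4.94 to -4.31) and -5.11 (-5.58 to -4.68), from 1568 UMIs untreated to 91 and 43. Naip1, a receptor of the NAIP family, was lower by -2.24 and -1.83.

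Of 19 measured genes of death receptors, 10 were higher at 24 h and 11 at 48 h, beside 25.6% and 37.4% of all genes. The list medians were 0.20 and 0.32. At each time 4 of the 19 were at least 2-fold higher, beside 3.21% and 4.73% of all genes, and 1 and 0 were at least 2-fold lower, beside 23.6% and 14.7%. Tnfsf10, the death ligand TRAIL, had log2 ratios of 3.97 (3.78 to 4.16) and 4.52 (4.33 to 4.71). The receptors Fas and Tnfrsf1a had 1.90 and 1.70 at 24 h and 2.06 and 1.44 at 48 h. The mouse TRAIL receptor Tnfrsf10b was lower, at -0.80 and -0.94, as was Tnfaip3, the NF-κB inhibitor A20, at -1.22 and -0.90.

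Of 9 measured regulators of necroptosis, 4 were higher at 24 h and 6 at 48 h, with medians of -0.08 and 0.14. The RNA sensors Ifih1, Tlr3 and Eif2ak2 had log2 ratios of 0.67, 0.63 and 0.63 at 24 h and 1.06, 1.15 and 0.87 at 48 h. Fkbp5 was at -0.59 and -0.06 and the phosphatase Ppm1b at -0.60 and -0.13, and with TMM factors the values at 48 h turned to 0.12 for Fkbp5 and 0.055 for Ppm1b. Of 23 other caspases and genes of mitochondrial apoptosis, 8 were higher at 24 h and 9 at 48 h, with medians of -0.22 and -0.16. Beside both lists, 25.6% of all genes tested were higher at 24 h and 37.4% at 48 h, with medians of -0.42 and -0.17. Bak1 and Bid had log2 ratios of 1.24 and 1.04 at 24 h and 1.11 and 1.37 at 48 h, and Cycs, cytochrome c, 0.90 and 0.48. Bcl2, the survival factor, was at -1.40 and -0.25, and Bmf, with 49, 37 and 22 UMIs, at -0.92 and -1.08.

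**Figure D5:**
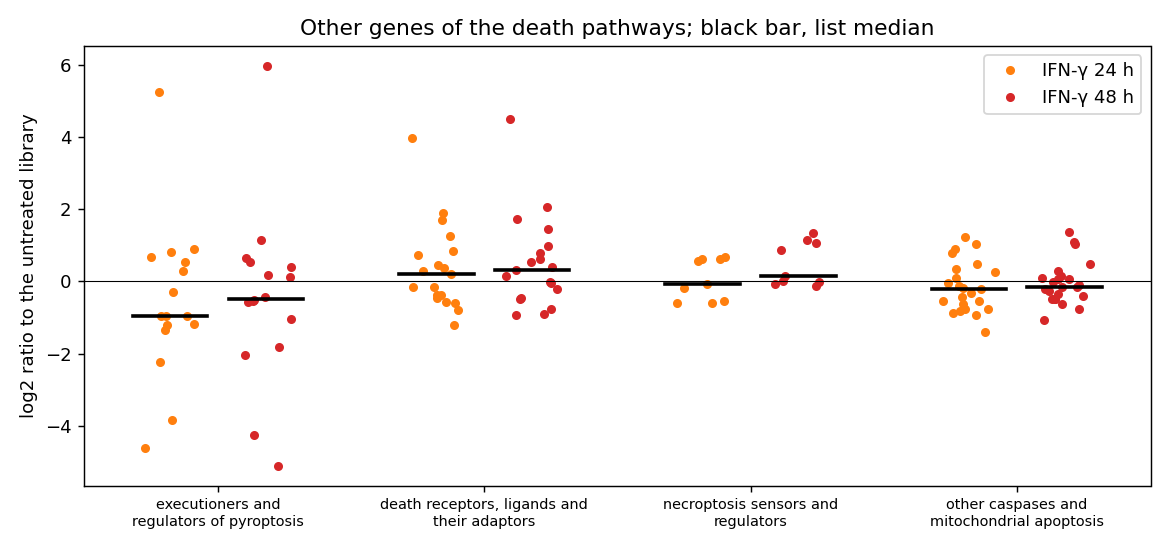
Log2 ratio to the untreated library of each measured gene in 4 lists, at 24 h and 48 h; black bars are list medians. The pyroptosis list has the lowest medians, -0.97 and -0.48, and its highest gene is Casp12.

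Across 21 sums of library and cluster, the genes whose log2 level followed each member most closely were described by Pearson's r among 8860 genes, where sums share libraries and are not independent. Zbp1 was nearest to B2m, Irgm1 and Ifi47, with r of 0.98, 0.97 and 0.97, and Mlkl to Gbp4, Gbp8 and Gm50237, each with 0.98. The nearest genes of Ripk3 were Mrps10, Wdr18 and Paox (0.95, 0.95 and 0.94), those of Casp1 were Shisa5, Cox8a and Plac8 (each 0.93), and those of Casp4 were A930037H05Rik, Neurl3 and Spns1 (0.95, 0.91 and 0.90). The other 3 genes had weaker neighbours, with Nos2 nearest to Casp8 (0.85), Uap1l1 to Gsdmd (0.86) and Tirap to Ripk1 (0.86).

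Promoter windows from RefSeq on GRCm38.p6, from 250 bases before to 50 after the start, were matched for 6 of the 8 genes. A pair of GAAA repeats 2 bases apart, searched on both strands as part of an interferon response element, occurred in 3.44% of 32851 windows. Of the members' windows, only the second window of Ripk1 (chr13:34002624-34002923, plus strand) held it, with 1 match. Ripk1 was among the members with the smallest ratios, and Mlkl, with larger ones, had no match in its window, which says only that these letters are not there.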

How the data were processed

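Single-cell libraries of mouse colon organoids (untreated, IFN-γ 24 h, IFN-γ 48 h; 1 each) were analysed. The authors mapped 10x Genomics 3′ reads to mm10 with Cell Ranger 6.0.1 and deposited UMI counts per gene and barcode, without normalization and with background barcodes kept. The cell filter (minima of 5000 UMIs and 400 genes, maximum mitochondrial share of 15%) followed the study's methods. Doublets were kept and no caller was run. Counts were summed per library and scaled to CPM, and ratios were given exact conditional binomial intervals, levels Poisson and shares Clopper-Pearson intervals, all at 95%, after the calculation was tested on simulated data. Counting error is all these intervals cover. Clusters came from Seurat 5.3.0 (CCA over 30 dimensions, 2000 variable genes, 20 principal components, resolution 0.5), and TMM factors from edgeR 4.0.16. Gene positions were taken from GENCODE vM21, which held 32158 of 32285 gene identifiers. The members, lists and rules were chosen with earlier results of these data known: the text names all 8 members, the 3 highest and 2 lowest ratios per list at 24 h among genes with at least 50 UMIs, and the 3 nearest genes per member. Cflar was named after its values were seen. Alternatives changed the filters, scaling, thinning and clustering. The values of 1 IFN-γ response gene and of 1 promoter motif are not reported here.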

Additional observations from a re-analysis of the deposited data

Results flagged for a closer look

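Barcodes under 2000 UMIs were outside every comparison, and in both treated libraries each of the 8 genes had a higher level there than in the untreated barcodes of that size. At 24 h and 48 h, in CPM, Zbp1 was at 83.7 and 105, Casp1 at 99.3 and 88.9, Ripk3 at 72.8 and 87.4, Casp8 at 68.7 and 66.2, Gsdmd at 51.4 and 57.8, Casp4 at 45.7 and 46.1, Mlkl at 44.1 and 42.8 and Ripk1 at 25.0 and 22.0. In kept cells Casp4 and Mlkl were at 96.6 and 76.7 CPM at 48 h, above their levels in these barcodes. Casp1 was higher in these barcodes than in kept cells at both times, where it was at 80.4 and 70.7 CPM, as were Zbp1 and Ripk3 at 48 h, at 91.1 and 82.5 CPM in kept cells.

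Cells with 15% to 30% mitochondrial UMIs were left out by the filter and in some cases held members above the untreated level beyond counting error. As CPM of non-mitochondrial UMIs, Zbp1 was at 55.1 at 24 h and 67.9 at 48 h, Mlkl at 67.8 and 84.0, Casp1 at 80.5 and 67.9, and Casp4 at 165 at 48 h. Casp4 at 24 h, at 99.6 against 117 untreated, and Casp8 and Ripk1 at 48 h, at 102 against 109 and 47.2 against 50.3, were not higher. These cells numbered 269, 59 and 138 in the untreated, 24 h and 48 h libraries.

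In the pathway lists, 5 genes had opposite directions at 24 h and 48 h with intervals that excluded 0. The log2 ratios were -0.15 and 0.40 for Cflar, -0.30 and 0.12 for Aim2, -0.39 and 0.14 for Birc3, -0.53 and 0.14 for Tlr4, and 0.10 and -0.091 for Parp1. The difference was not tested, both times share 1 untreated library, and with TMM factors 4 of the 5 lost the opposite directions, at 24 h Cflar (0.30), Aim2 (0.15) and Birc3 (0.060), and at 48 h Parp1 (0.095). Tlr4 kept them, at -0.084 and 0.32.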

How the results depend on the processing

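No paired analysis was possible because each condition had 1 library, and for the same reason no library could be left out. All 8 members stayed higher than untreated at both times with TMM factors and with clusters weighted as in the untreated library, the latter chosen after seeing the data. With TMM factors the members at least 2-fold higher at 24 h went from 2 to 5, and the median log2 ratio went to 1.11 at 24 h, 0.84 at 48 h and -0.16 at 48 h against 24 h, where Ripk1, Zbp1, Ripk3 and Mlkl turned to -0.063, -0.13, -0.19 and -0.012. At 24 h Cflar, Aim2 and Birc3 turned to 0.30, 0.15 and 0.060, and at 48 h Ppm1b, Parp1 and Fkbp5 to 0.055, 0.095 and 0.12. Aim2 at 48 h turned to -0.027 as a mean over cells and to -0.00052 after thinning. The median at 48 h was 0.55 as a mean over cells and 0.56 after thinning. Over 12 settings the log2 ratio of Zbp1 ran from 4.85 to 6.16 at 24 h and from 4.89 to 6.03 at 48 h. That of Casp4 at 24 h ran from 0.078 to 0.69. Under the other settings, 17 ratios of members at 24 h lay outside their main interval and 71 inside. At 48 h against untreated these numbers were 22 and 66, and all ratios of members to untreated stayed above 0.

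The share of cells with Zbp1, Ripk3 and Mlkl together was 0.763% and 0.579% when thinned to 2000 UMIs and 69.7% and 30.2% unthinned, at 24 h and 48 h, and 3.97% at 48 h with at most 10% mitochondrial UMIs. Their log2 ratio between mitochondrial tertiles was 0.10 and -0.29 when scaled to all UMIs, 0.0014 and -0.27 after thinning, and 0.032 and -0.076 within depth quartiles, and -0.038 at 48 h with 10000 UMIs per cell.

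Other settings for all genes were added after seeing the data. With TMM factors the genes past 2-fold numbered 1070 higher and 2339 lower at 24 h, and 713 and 505 at 48 h against 24 h. With at least 100 UMIs they numbered 2201 lower at 24 h, 500 higher and 1322 lower at 48 h, and 710 and 141 at 48 h against 24 h. The cause of these changes was not tested. Thinning to 5000 UMIs makes shares of cells comparable but keeps few UMIs of each gene per cell.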
